A study of Pomatostomus ruficeps with 28 samples.

Results

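CpG sites whose methylation averaged 95% or more over the nestlings were examined in blood of chestnut-crowned babblers (Pomatostomus ruficeps), a cooperatively breeding bird. Of the 1564780 CpG sites deposited, 24559 (1.57%) met this rule, and they lay on 5894 of 22694 scaffolds. The rule used the methylation values themselves, so the level of these sites, and every count of low values at them, is a description and was not tested. Blood was taken once from each of 28 wild nestlings aged 14 to 20 days. Of these, 19 had been raised by a group, meaning parents with at least 1 helper, and 9 by a pair, meaning the parents alone. Some nestlings of each class had been moved as hatchlings to an unrelated nest. That status was not used here, and 19 natal group codes covered the 28 birds. DNA was converted enzymatically and sequenced, and the value of a site in a nestling is the percentage of its reads that were methylated.

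DNA methylation in vertebrates is placed mostly on cytosines followed by guanine, and most such sites in a bird genome are methylated in most cells. The mark is copied onto the new strand when a cell divides, and it can be lost when copying fails or when TET enzymes oxidise it. Bird red blood cells keep their nucleus, so DNA from bird blood comes largely from red cells and reflects a mixture of cells. In such a mixture a site at full methylation carries the mark in nearly every cell, and a lower percentage means that a share of the sequenced molecules was unmethylated. Enzymatic conversion reads methylated and hydroxymethylated cytosine alike. No gene, strand or sequence was assigned to the sites, which are given by scaffold and position as the authors gave them.

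The sites had a value in 18 to 28 nestlings (median 21). Their means ran from 95% to 98.3% (median 95.4%), and 29 sites lay at 95% exactly after rounding to 9 decimals. Just inside the limit, position 52952 of scaffold VYZT01005451.1 and position 39471 of scaffold VYZT01062122.1 each averaged 95% over 24 nestlings, with 17 nestlings at 100%. Just outside it, position 75812 of scaffold VYZT01035950.1 averaged 94.9999% over 22 nestlings and position 6119 of scaffold VYZT01020076.1 averaged 94.9998% over 24. The limit therefore cut through a continuous run of sites, and 458823 sites averaged from 90% to under 95%.

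The SD over nestlings was 7.41 to 17.4 percentage points at these sites (median 7.99). The lowest SD of any deposited site was 7.41, because the authors had removed sites that varied little. A site could thus stay in the table at a mean of 95% only if at least some nestlings were clearly lower. Sites at full methylation in every nestling were not analysed here. Of the 518853 values at the 24559 sites, 71.3% were exactly 100%, against 30.2% over all deposited values.

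A value below 80% is called a loss here. The word describes a low value in a bird sampled once, not a fall seen over time. Losses made up 31225 of the values (6.02%), against 9.71% at sites averaging 90% to under 95% and 29.1% over all sites. At least 1 nestling carried a loss at 24062 of the 24559 sites. A single nestling carried it at 17271 sites (70.3%) and 2 nestlings at 6421 sites (26.1%). Losses in 3 nestlings were found at 368 sites (1.498%) and in 4 nestlings at 2 sites. At the other 497 sites (2.02%) no nestling was below 80%. At most sites, therefore, all measured birds but 1 were at 80% or more. The limit on the mean and the filter on variation both bear on how many birds could be low at a site.

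The sites with the most losing nestlings show what a repeated loss looked like. At position 59929 of scaffold VYZT01015178.1 the 16 group nestlings ranged from 76.9% to 100% (median 100%) and the 9 pair nestlings from 75% to 100% (median 100%). Group nestlings 79513 and 79685 had 76.9% (10 of 13 reads methylated) and 77.8% (7 of 9). Pair nestlings 79561 and 79676 had 75% (6 of 8) and 77.8% (7 of 9), so both carer classes held losses and 19 of the 25 nestlings were at 100%.

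At position 16693 of scaffold VYZT01056112.1, group nestlings 79532, 79555 and 79684 had 62.5%, 77.8% and 77.8%, and pair nestling 62525 had 78.6%. Of its 24 nestlings 20 were at 100%. The site with 3 losses and a value in most nestlings was position 21760 of scaffold VYZT01039670.1, measured in all 28. Its losses were in group nestlings 62534 (77.8%), 79578 (77.3%, 17 of 22 reads methylated) and 79685 (62.5%), and the 9 pair nestlings lay between 81.8 and 100%.

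Most losses were shallow. The median value of a loss was 72.7%, and 26313 of the 31225 (84.3%) lay from 70% to under 80%. A further 13.1% lay from 60% to under 70% and 2.10% from 50% to under 60%. Only 174 losses (0.557%), at 174 different sites, were below 50%, and 2 were below 20%. The lowest value was 16.7%. The number of reads bounded this depth. As described for the read numbers further on, the lowest value possible was 71.4% on 7 reads, 62.5% on 8 and 55.6% on 9, and 69.2% of the values rested on 5 to 9 reads. Values below 50% could occur only from 10 reads upwards. On 14 or more reads, where they could occur, 84 of the 1682 losses (4.99%) were below 50%. The limit on the mean also bears on how deep a value could be. How much of the rarity of values below 50% came from the read minimum was not tested.

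**Figure D1:**
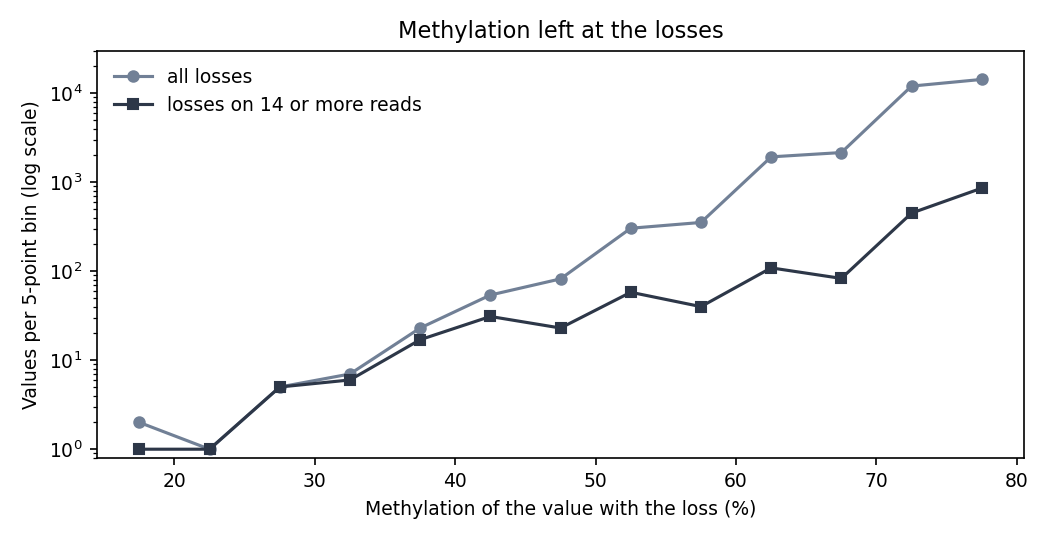
The number of losses (values below 80% methylation at the nearly fully methylated sites) is plotted against the methylation of the value, in bins of 5 percentage points, with a logarithmic vertical axis. Circles are all 31225 losses and squares the 1682 that rested on 14 or more reads. The numbers are far lower towards the left, with 174 losses below 50%, and bins that held none have no point.

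The deepest losses by reads were single birds at sites otherwise near 100%. They were chosen after their values were seen, because no value at these sites was at 10% or less. At position 74777 of scaffold VYZT01058771.1 group nestling 79513 had 39.1% (9 of 23 reads methylated, exact 95% binomial interval 19.7 to 61.5%), while 18 of the 24 nestlings were at 100% and the 8 pair nestlings lay between 93.3 and 100%. At position 6052 of scaffold VYZT01047452.1 the same nestling had 42.9% (9 of 21 reads, interval 21.8 to 65.98%), and the 9 pair nestlings lay between 83.3 and 100%. Pair nestling 62618 had 45.5% (10 of 22 reads, interval 24.4 to 67.8%) at position 21843 of scaffold VYZT01057720.1, where the 16 group nestlings lay between 88.9 and 100%. Intervals cover counting error only, since reads without molecular identifiers need not be independent molecules.

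The number of reads behind a value decided which percentages it could take. In 27 nestlings the reads were recovered from the deposited percentage and coverage, and in nestling 79687 they were deposited. The table does not state how its coverage was defined. In nestling 79687 coverage was the sum of the deposited reads, which is not the reading used for the other 27. Every read number of those 27 rests on the reading given with the processing. By that reading many values rested on fewer than the 10 reads that the coverage filter of the methods names. The median was 8 reads at these sites and 9 over all sites, and the fewest were 5. The reading used for the 27 nestlings itself allows only values with at least 5 methylated or at least 10 unmethylated reads. With 5 or 6 reads a value below 80% could therefore not occur, and 28.1% of the values at the nearly fully methylated sites were of this kind. With 7 to 9 reads, 2 unmethylated reads were enough for a loss, and 10.8% of these values were losses.

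The loss share followed the arithmetic of small read numbers. It was 9.998% at 7 reads, 10.9% at 8 and 11.8% at 9, fell to 4.59% at 10 reads, where 3 unmethylated reads were needed, and rose again to 7.29% at 14. At 15 reads, where 4 were needed, it was 2.82%. Over 10 to 14 reads it was 5.44%, over 15 to 19 reads 3.43% and over 20 to 44 reads 2.65%. The share of reads that were unmethylated, in contrast, stayed between 5.35 and 5.60% at each number of reads from 7 to 19. Over all reads at these sites it was 4.84%, against 16.8% over all deposited sites.

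**Figure D2:**
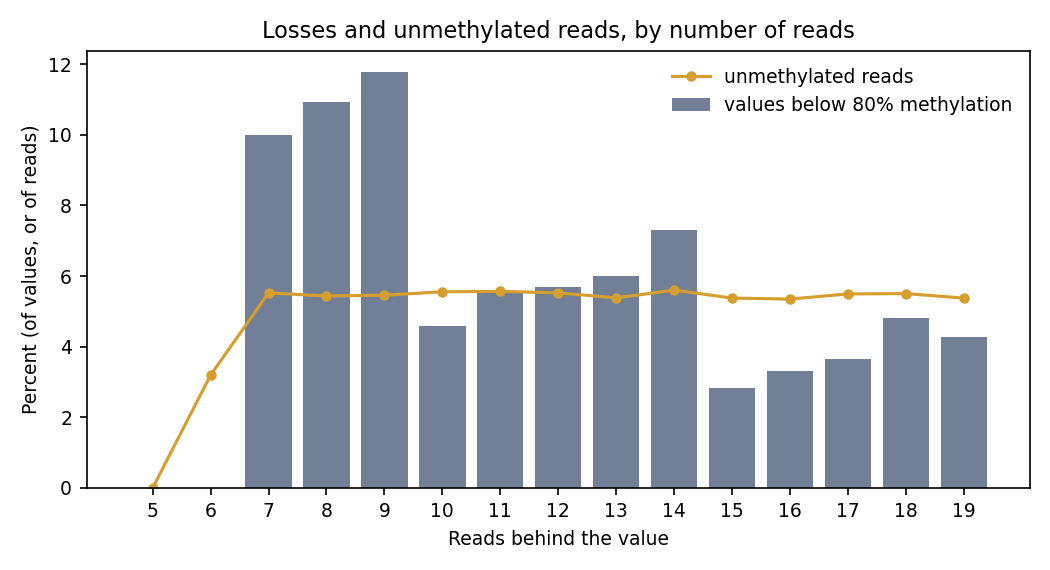
The horizontal axis is the number of reads behind a value at the nearly fully methylated sites, from 5 to 19. Bars give the percentage of values below 80% methylation and the line with circles the percentage of reads that were unmethylated, both over all nestlings. The bars step down from 11.8 to 4.59% between 9 and 10 reads and from 7.29 to 2.82% between 14 and 15, whereas the line is level from 7 reads upwards. No value on 5 or 6 reads was below 80%.

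Of the losses, 64.3% had exactly 2 unmethylated reads, 26.3% had 3 and 9.43% had 4 or more, and 73.9% rested on 7 to 9 reads. The exact 95% binomial interval of the value reached 95% or higher at 20604 losses (65.99%). All losses with 2 unmethylated reads were among these, so none of them could be told from a level of 95% by its own reads. The interval ended below 95% at 10621 losses (34.0%). These lay at 10096 sites, of which 524 had more than 1 nestling of this kind. Per nestling they made up 0.656 to 4.77% of the values (median 1.55%). Intervals of this level miss the true level at times by counting error alone, and the losses are the low end of 518853 values. Whether losses of this kind were more than counting error gives was not tested. Among the 1682 losses on 14 or more reads, 77.8% still lay from 70% to under 80%, and 84 (4.99%) were below 50%.

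Losses were found in every nestling, at shares that differed about 3-fold between the lowest and the highest. In nestlings raised by groups the share of values below 80% ranged from 4.17% (nestling 79594) to 7.57% (nestling 79328), with a median of 5.45% and a mean of 5.46% ± 0.873 (SD, n = 19). In nestlings raised by pairs it ranged from 5.08% (nestling 79561) to 12.4% (nestling 79676), with a median of 5.79% and a mean of 6.85% ± 2.35 (SD, n = 9). Apart from 79676 and 61667 (8.43%), the pair nestlings lay inside the range of the group nestlings.

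**Figure D3:**
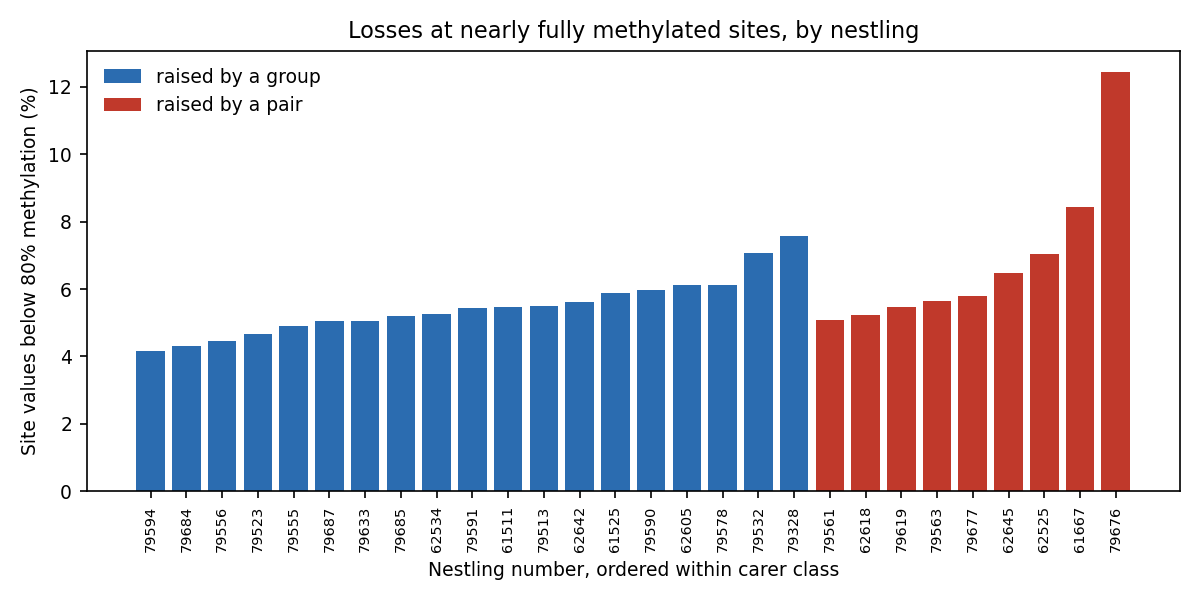
Each bar is 1 nestling, named by its number and ordered by height within the carer class, and its height is the percentage of its values at the nearly fully methylated sites that were below 80%. Blue bars are the 19 nestlings raised by groups, from 4.17 to 7.57%, and red bars the 9 raised by pairs, from 5.08 to 12.4%. The classes overlap, and pair nestling 79676 stands above all others.

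The difference between the carer classes was smaller than the SD among pair nestlings. Group mean minus pair mean was -1.38 percentage points. It was larger than the SD among group nestlings. Without nestling 79676 the pairs averaged 6.15% ± 1.13 (SD, n = 8) and the difference was -0.683 points, smaller than the SD of either class. Without 79676 and 61667 it was -0.357 points, with pairs at 5.82% ± 0.696 (SD, n = 7). Values on 5 or 6 reads, where no loss could occur, averaged 30.7% in groups and 25.3% in pairs. At the mix of read numbers shared by all nestlings the difference was -1.04 points, and -0.154 without 79676 and 61667. On values of 7 to 9 reads (18 group nestlings) it was -1.46 points, and 0.00657 without those nestlings.

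Nestling 79676, raised by a pair and sampled at 14 days, had a loss at 2468 of 19834 sites. It held 7.90% of all losses on 3.82% of the values. It had 8.09 reads per value at these sites, and the other nestlings had 6.47 to 12.2. Within values on 7 to 9 reads it had 20.1% losses and the next nestling, 61667, had 13.7%. Within values on 10 to 14 reads it had 11.8% and 61667 again followed, at 7.37%. By the share of values with a loss whose interval ended below 95%, group nestling 79687 was highest (4.77%) and 79676 second (4.31%). That rank depends on depth. Losses with 2 unmethylated reads never had such an interval, and 79687, with no value on under 10 reads, had no such losses. On 10 to 14 reads, each by its own definition, 79687 had 5.34% losses, against 11.8% in 79676.

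Nestling 79676 also had the highest share of unmethylated reads at these sites, 7.47%, where the others had 3.66 to 5.87%. At sites averaging 90% to under 95% its share was 10.5% and the others had 6.64 to 9.66%. At sites averaging from 50% to under 80%, in contrast, 9 nestlings had a higher share than its 28.6%. At sites averaging from 80% to under 90%, 1 nestling exceeded its 16.7%. At the few sites averaging from 20% to under 50% it was again highest, at 65.2% against 58.5 to 64.4%. Its rank thus changed with the level of the sites, and at the nearly fully methylated ones it stood furthest above the next nestling, at 7.47 against 5.87%. Nestling 79677, of the same natal group and also raised by a pair, had 5.79% losses and 4.65% unmethylated reads, both inside the range of the group nestlings. What set nestling 79676 apart was not tested.

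Since each nestling enters the mean that chose the sites, its losses were also counted at sites averaging 95% or more over the other nestlings alone. The shares were then 14.4 to 23.0% in groups (median 17.5%) and 16.1 to 31.1% in pairs (median 19.03%), with nestling 79676 highest and 61667 next at 24.1%. Over all nestlings the share counted in this way was 19.03%. These shares also depend on the authors' filter on variation, because a site near 100% in the other nestlings stayed in the table only if its SD reached 7.41 with the nestling in question. They are therefore not to be read as rates of loss at sites that were nearly fully methylated in other birds.

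The loss share showed little relation to age at sampling. Over the 28 nestlings Pearson's r was -0.017 and Spearman's rho 0.085, given as a description. The 7 nestlings aged 14 days had 5.04 to 12.4% losses (median 5.50%), the 6 aged 15 days 4.17 to 6.11% (median 5.36%), the 7 aged 16 days 4.45 to 7.03% (median 5.45%) and the 4 aged 17 days 4.67 to 7.57% (median 6.04%). The single nestlings of 18 and 20 days had 5.45 and 5.26%, and the 2 of 19 days 5.88 and 8.43%. Without nestling 79676 r was 0.267 (rho 0.187, n = 27), and without 61667 as well it was 0.077 (rho 0.101, n = 26).

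**Figure D4:**
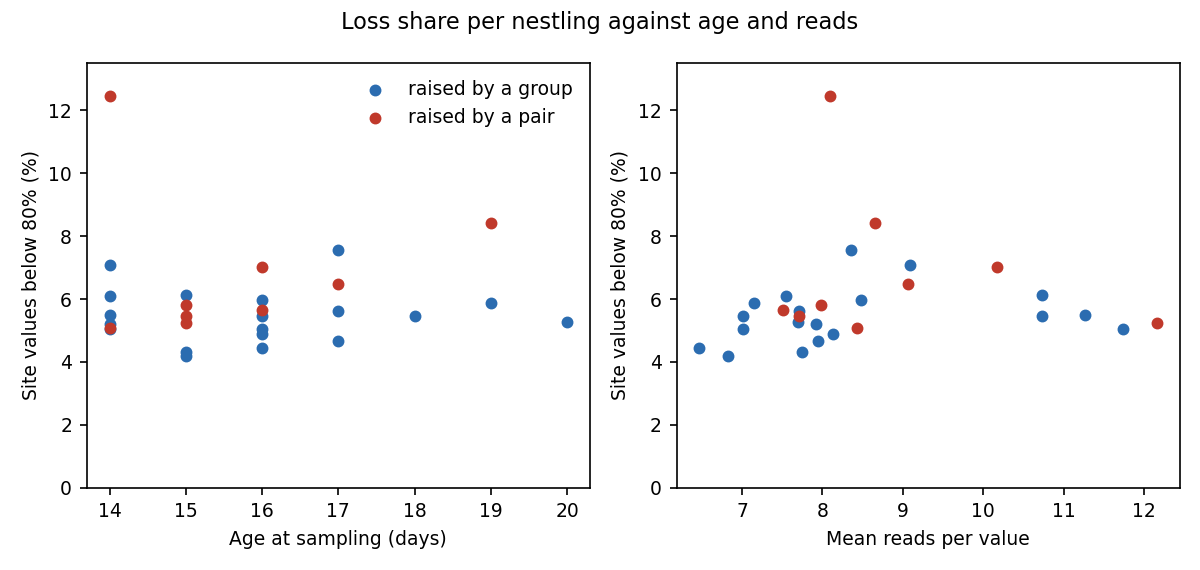
The percentage of values below 80% at the nearly fully methylated sites is plotted for each nestling against its age in days (left) and against its mean number of reads per value at these sites (right). Blue points are nestlings raised by groups and red points those raised by pairs. Pair nestling 79676 is the point at 12.4%, at 14 days and 8.09 reads, and the remaining points overlap between ages.

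The relation with depth depended on what was counted. Mean reads per value ranged from 6.47 to 11.7 in groups and from 7.51 to 12.2 in pairs. The share of losses was weakly related to it (r = 0.078, rho = 0.330, n = 28), and at the mix of read numbers shared by all nestlings it was not (r = -0.031, rho = 0.013). Reads of nestling 79687 follow another definition. Without it the values were r = 0.133 and rho = 0.421, and at the shared mix r = 0.035 and rho = 0.089 (n = 27). Values below 50% could occur only on 10 or more reads, and a value on 5 reads was always 100%, so the read minimum bears on the next relations. What remains of these relations without the minimum was not tested. The share of values below 50%, which ranged from 0 to 0.223% per nestling, rose with mean reads per value (r = 0.845, rho = 0.896). Without nestling 79687 this was r = 0.922 and rho = 0.885 (n = 27). The 2 highest shares, in 79687 (0.223%, 14 values) and 62618 (0.121%, 16 values), belonged to the 2 nestlings with most reads per value, 11.7 and 12.2, though by different definitions. The mean methylation of these sites fell with mean reads per value (r = -0.576, rho = -0.765). It went from 96.7% in nestlings 79594 and 79556 at 6.83 and 6.47 reads to 94.7% in nestling 79687, in which no value rested on under 10 reads. Without 79687 this was r = -0.544 and rho = -0.755 (n = 27). The lowest mean, 93.1%, was that of nestling 79676 at 8.09 reads.

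Nestlings with more unmethylated reads over all deposited sites also had more losses at the nearly fully methylated ones (r = 0.522, rho = 0.614, n = 28). At the shared mix of read numbers the relation was weaker (r = 0.345, rho = 0.321), with r = 0.113 among the 19 group nestlings and 0.551 among the 9 pair nestlings. Both measures come from the same libraries and share their depth, so this too is a description.

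Nestlings of 1 natal group shared about as many losses as nestlings of different ones. For each pair of nestlings, the losses that both carried were taken as a percentage of all losses of the 2 birds at sites measured in both, each shared loss counting for both birds. In the 12 pairs of birds with the same natal group code this was 0.380 to 3.16% (median 2.13%), and in the 366 pairs with different codes 0 to 4.67% (median 2.24%). Birds recur among the pairs with the same code, since nestlings 62642, 79684, 79685 and 79687 share a code. The lowest of these pairs, 79685 with 79687, had 1 loss in common. Of the 6421 sites with exactly 2 losing nestlings, both came from the same natal group at 169 (2.63%), where 2.85% of the possible pairs of measured birds at these sites did. On values of at least 10 reads the medians were 0 for the same code and 1.03% for different codes. For nestlings that had been moved, the natal group code is not that of the nest they were raised in.

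Losses at neighbouring nearly fully methylated sites fell in the same nestling more often than in others over short distances, though in most cases the neighbour was not lost. Within 200 bp there were 5299 pairs of such sites. When a nestling had a loss at one of them, the other was also below 80% in that nestling in 1774 of 11836 cases (14.99%). In nestlings without the loss the same neighbours were below 80% in 5.52% of cases. The first share was above the second in 28 of 28 nestlings. It ranged from 9.50 to 26.7% between nestlings (median 12.4%), with 79676 highest, and was 13.9% against 5.31% without that nestling. By the mean value of the neighbour, the losing nestlings were lower than the others in 45.8% of 9357 comparisons within 200 bp (median difference 2.74 points, higher in the losing nestlings; mean difference -3.43 points). Between 2 and 50 bp they were lower in 54.8% of comparisons.

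The joint loss faded with distance. At 2 bp the neighbour was lost in 53.6% of cases, against 2.80% in the other nestlings. At 3 to 5 bp it was 32.7% against 4.54%, at 6 to 10 bp 24.0% against 4.90%, at 11 to 25 bp 18.8% against 5.21% and at 26 to 50 bp 12.4% against 5.79%. From 51 to 200 bp it was 7.72% against 6.03%, higher in 18 of 28 nestlings, and beyond 200 and up to 1000 bp 6.52% against 6.05%, higher in 13 of 28. Most of what was shared within 200 bp was therefore shared within 50 bp.

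**Figure D5:**
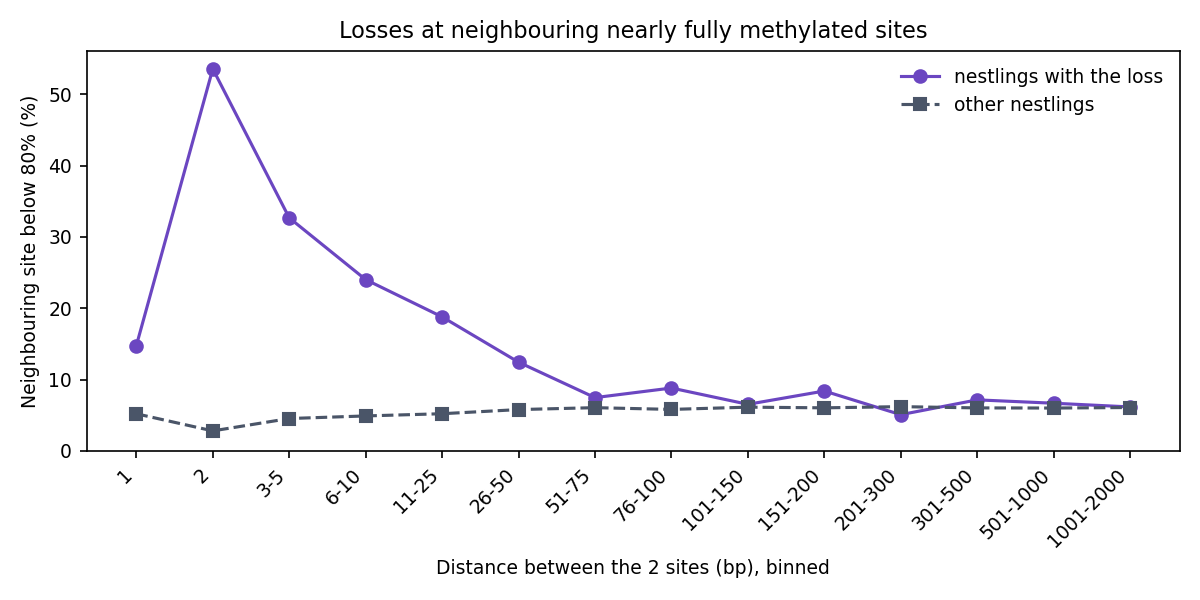
For pairs of nearly fully methylated sites, grouped by the distance between them in bp on the horizontal axis (bins of unequal width), circles give the percentage of cases in which the second site was below 80% in a nestling with a loss at the first. Squares give the same percentage in nestlings without that loss. The circles fall from 53.6% at 2 bp to 12.4% at 26 to 50 bp and lie near the squares, which stay between 2.80 and 6.20%, from 51 bp onwards, and the point at 1 bp (14.8%) is far below that at 2 bp.

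Close sites can be covered by the same reads, and the share of values with equal read numbers at both sites was given as a measure of this. At 2 bp 73.1% of the values at both sites of a pair rested on equal numbers of reads, at 26 to 50 bp 20.04% and beyond 150 and up to 200 bp 13.2%. Among sites 2 to 50 bp apart, the neighbour was lost in 33.5% of cases where the read numbers were equal and in 16.1% where they were not. At 1 bp these shares were 11.9% and 15.1%. With 7 to 9 reads at both sites the shares were 30.9% against 8.08% at 1 to 50 bp, 13.9% against 10.2% at 51 to 100 bp and 11.8% against 10.5% beyond 100 and up to 200 bp. With 10 to 14 reads at both they were 22.2% against 4.36% at 1 to 50 bp, 4.18% against 5.98% at 51 to 100 bp and 9.47% (32 of 338) against 5.85% beyond 100 and up to 200 bp. Whether joint losses came from the same molecules was not tested.

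Pairs of positions 1 bp apart behaved otherwise. The methods describe both strands as collapsed into 1 value, but 310421 pairs of deposited positions were 1 bp apart, and 2 CpG sites cannot start 1 bp apart on the same strand. Such a partner position was present for 7557 of the nearly fully methylated sites (30.8%) and for 38.7% of all sites. The partners averaged 92.0% (median 92.5%, lowest 43.9%), and in 284 cases both positions were nearly fully methylated. In these a loss at one went with a loss at the other in 14.8% of cases, against 5.20% in the other nestlings. Equal read numbers were found at 12.8% of these values. Across all partners, including those of lower mean, the partner stood at 89.9% where the site had a loss and at 92.2% where it had none. Partner positions were thus mostly still methylated at a loss.

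With any deposited site as the neighbour, the share below 80% within 200 bp was 24.0% in the nestling with the loss and 18.3% in the other nestlings, and the first was higher in 28 of 28 nestlings. At 2 bp it was 47.1% against 8.60%, and beyond 150 and up to 200 bp 21.2% against 19.5%. The joint loss was therefore not limited to neighbours that averaged 95% or more.

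Nearly fully methylated sites were found near each other more often than near deposited sites at large. Each had passed the filter on variation, and 24062 of the 24559 carried a loss. Neither their nearness nor the joint losses in chains can therefore be separated from that filter. The median number of deposited sites within 200 bp was 8, as it was for all sites, but 29.9% of the nearly fully methylated sites had another within 200 bp, against 12.5% of all sites. Their neighbours averaged 89.3%, against 85.2% for the neighbours of all sites. Joined where the next was within 200 bp, 7346 of them formed 3150 chains of 2 to 8 sites. In 752 of these chains at least 1 nestling had 2 or more losses, in 802 cases in all. Of these cases 759 had 2 sites lost, 38 had 3, 4 had 4 and 1 had 5. Every nestling had such a case, from 4 to 115 per nestling (median 24), with 79676 at 115 and the next nestling at 61.

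The chain with most sites lost in 1 bird spanned positions 36705 to 36736 of scaffold VYZT01022851.1 and had 6 sites. Of these, positions 36715, 36716 and 36717 follow each other at 1 bp and were counted separately, though some may share a CpG. Pair nestling 79561 was at 77.8%, 62.5%, 71.4%, 71.4% and 62.5% at positions 36705, 36712, 36715, 36717 and 36736, on 7 to 9 reads each, and at 90% (9 of 10 reads methylated) at position 36716. The other nestlings had a median of 100% at all 6 positions and lay between 83.3 and 100% at the 5 positions named first. At position 36716, which lies 1 bp from 2 of the lost sites, another nestling was at 50%.

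In the chain at positions 15367 to 15536 of scaffold VYZT01060350.1, group nestling 62605 was at 54.5% (6 of 11 reads methylated) at position 15367. At positions 15499, 15504 and 15506 it was at 63.6%, each on 7 of 11 reads. At position 15536 it had no value, and the median of the other nestlings was 100% at all 5 positions. At positions 15499 and 15536 another nestling was at 75%. In the chain at positions 6486 to 6507 of scaffold VYZT01015217.1, group nestling 79594 was at 71.4% at all 4 sites, with 5 methylated and 2 unmethylated reads at each. Another nestling was also at 71.4% at position 6507. Whether the same molecules were read at all 4 sites was not tested.

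The carer class and age of the nestlings were tested at each site with a beta regression over all 1564780 sites. With the Wald p adjusted by Benjamini-Hochberg and a limit of 0.01, the carer term was called at 32 of the 24559 nearly fully methylated sites, or 0.130%, where 0.0779% of all sites were called. All 32 were higher in groups, a direction that held 0.0689% of all sites, while 0.00901% of all sites were called lower in groups. The rule itself bears on the direction. At a mean of 95% or more, the mean of the pair nestlings could lie at most 20.8 points below 100% at any of these sites, and that of the group nestlings at most 8.75 points. At an unadjusted p under 0.05 the carer term stood at 1206 of the sites (4.91%), against 8.48% of all sites. With a likelihood ratio test 1 of these sites was called, and 9 over all sites. Its unadjusted p was under 0.05 at 945 of them (3.85%), against 7.19% of all sites. With limma on logit values 0 were called, here and over all sites. There 1049 (4.27%) had an unadjusted p under 0.05, against 4.92% of all sites. Quasi-binomial regression on reads went the other way. It called 12 of these sites and 15 over all sites. Its unadjusted p was under 0.05 at 2472 of them (10.1%), against 5.74% of all sites.

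The site with the smallest carer p was position 23575 of scaffold VYZT01020495.1. Its 14 group nestlings lay between 92.9 and 100% (median 100%) and its 6 pair nestlings between 77.8 and 100% (median 86.1%). Group nestlings averaged 99.0% ± 2.44 (SD, n = 14), whereas the pair nestlings averaged 86.9% ± 8.90 (SD, n = 6). Both losses, in pair nestlings 79561 and 79676, were 77.8% on 7 of 9 reads. The carer term was 1.64 ± 0.14 (SE, logit scale; adjusted p = 4.73e-24, beta regression), and the adjusted p was 0.000758 with the likelihood ratio test, 0.0476 with quasi-binomial regression on reads and 0.996 with limma. The range over its 8 alternatives was 1.32e-21 to 0.996. The values of the classes overlap at this site.

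At position 102869 of scaffold VYZT01045109.1 all 12 group nestlings were at 100% and the 6 pair nestlings lay between 75 and 100% (median 85.7%, mean 86.3% ± 7.96, SD). The adjusted p of the beta regression was 5.63e-09, and over 7 alternatives it ranged from 4.29e-09 to 0.996. At position 438946 of scaffold VYZT01035272.1 the 15 group nestlings lay between 90 and 100% (median 100%) and the 7 pair nestlings between 72.7 and 100% (median 90.9%). Its adjusted p was 2.78e-08 in the beta regression, with 2.04e-16 to 0.996 over 8 alternatives. At these 3 sites the pair nestlings reached down to 72.7, 75 and 77.8%, values that rested on 11, 8 and 9 reads.

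No nearly fully methylated site was called lower in groups. The smallest p in that direction was at position 425125 of scaffold VYZT01020468.1, with all 7 pair nestlings at 100% and the 13 group nestlings between 62.5 and 100% (median 93.8%; adjusted p = 0.0531, beta regression). At position 43685 of scaffold VYZT01023040.1 all 8 pair nestlings were at 100% and the 12 group nestlings between 72.7 and 100% (adjusted p = 0.267, beta regression). At position 149988 of scaffold VYZT01029999.1 the 6 pair nestlings were at 100% and the 12 group nestlings between 80 and 100% (adjusted p = 0.269, beta regression).

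The age term was called at 33 of the sites, or 0.134%, where 0.0404% of all sites were called. One rose with age, in a direction that held 0.0138% of all sites, and 32 fell, against 0.0266% of all sites. The limit on the mean can bear on this direction too. Only 1 nestling was 18 days old, 2 were 19 and 1 was 20, while 7 were 14, and few birds can be low at a site. How much this bears on the direction was not tested. The direction differed with quasi-binomial regression on reads, in which 7 sites were called, 5 rising and 2 falling. Over all sites that regression called 9, of which 6 rose. Its unadjusted p was under 0.05 at 2032 of the nearly fully methylated sites (8.27%), against 5.30% of all sites. In the beta regression 53.2% of the age terms at the nearly fully methylated sites were above 0, against 51.5% of all sites. There the age term had an unadjusted p under 0.05 at 1240 sites (5.05%), against 8.1% of all sites. With the likelihood ratio test and with limma 0 sites were called, here and over all sites. The unadjusted p was under 0.05 at 1031 (4.20%) and 876 (3.57%) of these sites, against 7.13% and 5.13% of all sites. The site that rose was position 23575 of scaffold VYZT01020495.1, described above for the carer term (0.37 ± 0.05 per day on the logit scale, SE; adjusted p = 4.27e-08, beta regression, 1.65e-07 to 0.968 over 7 alternatives). Among those that fell, the smallest p was at position 183111 of scaffold VYZT01006014.1. It was at 100% in 14 of 18 nestlings, and its 1 loss was 75% (6 of 8 reads methylated) in pair nestling 61667, aged 19 days. The term was -0.45 ± 0.06 per day (SE; adjusted p = 4.52e-09, beta regression), and the adjusted p was 0.132 with the likelihood ratio test and 0.968 with limma.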

How the data were processed

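Whole-genome enzymatic methyl sequencing was carried out on blood of 28 nestlings (19 raised by groups, 9 by pairs). The authors trimmed reads with HTStream, mapped them to the chestnut-crowned babbler genome with Bismark and removed sites of low or extreme coverage, sites present in few nestlings of a class and sites of low variation. Each deposited percent value divides the methylated reads of a nestling at a site by its reads there, and no scaling between nestlings was applied. Depth came from the deposited coverage (signal) and, in nestling 79687 alone, from deposited read counts. A deposited score of variation matched the variance over nestlings computed here. The table holds 7 further columns, which were not used.

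For the other 27 nestlings, reads were recovered from the percentage and the coverage, read as the doubled number of methylated reads plus the number of unmethylated reads, each term entering only from 10 upwards. All values resolved within 1e-06, each in 1 way. The table does not state this definition, which was chosen after the data were seen and gives fewer than 10 reads at many values although the methods remove sites under 10. In nestling 79687, the only one with deposited reads, coverage was their sum. There the definition resolved 15.8% of the values (7.17% of those below 100%). It was therefore not borne out where it could be checked, and depths in 79687 and in the other nestlings rest on different definitions. Values per nestling at the nearly fully methylated sites numbered 6288 to 23240.

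The mean per site was taken over nestlings with a value and rounded to 9 decimals. Loss shares, neighbours and correlations are descriptions. Carer class and age were fitted at all sites by beta regression (logit link, maximum likelihood), after the usual shrinkage of values off 0 and 1 (0.5 added to y times n-1, over n), a Wald test and Benjamini-Hochberg adjustment, and called at 0.01. Brood and cross-fostering status were not entered. P-values set the terms against the spread between nestlings, each taken as independent. Some nestlings share a natal group, and the paper counts fewer broods than nestlings. The fit was tested on simulated data, where it recovered known changes. Whether it recovers changes at the nearly fully methylated sites was not tested. Its Wald test was too liberal at simulated sites without a change, so calls under the other tests are given beside its own. Alternatives included a likelihood ratio test, quasi-binomial regression on reads, limma 3.58.1 on logit values and 1 nestling per natal group. The loss share at a shared mix of read numbers weights each nestling's shares at 5 ranges of reads by the frequency of these ranges over all nestlings, leaving out ranges in which that nestling has no value.

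The sites, thresholds and tests were chosen with earlier results of these data known. Named sites were the 3 with most losing nestlings, the 3 chains with most sites lost in 1 nestling, the 3 with the smallest carer p in each direction, the 1 with the smallest age p in each direction and the 2 on either side of the limit. The 3 deepest losses by reads were added after values were seen. Scripts ran under R 4.3.3 and Python 3.11.15 (numba 0.67.0, scipy 1.17.1, numpy 2.4.6).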

Additional observations from a re-analysis of the deposited data

Results flagged for a closer look

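Of 13 measures compared among the 9 pair nestlings, 7 had a nestling whose gap to the next exceeded Dixon's limit for 9 values. Chance marks about 1 in 20 groups, but that rate does not hold here. Most of these measures come from the same losses, at sites chosen by their own values, so the flags are descriptions. The group nestlings were not screened. Among them 79687 had 0.223% of its values below 50%, and the next, 79513, had 0.0910%. Nestling 79676 was far from the other pair nestlings in 6 of them. Its share of values below 80% was 12.4% (next 8.43%), with 20.1% on 7 to 9 reads (next 13.7%), 11.8% on 10 to 14 reads (next 7.37%) and 11.8% at the shared mix of read numbers (next 7.71%). Its unmethylated reads were 7.47% (next 5.87%). When it had a loss, a neighbouring site within 200 bp was also lost in 26.7% of cases (next 18.5%). Nestling 62618 had 0.121% of its values below 50% (next 0.0554%), with the most reads per value of the nestlings whose reads were recovered.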

How the results depend on the processing

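Of 80 values recomputed for these comparisons, 44 moved by less than a set limit and 36 by more. For shares of losses and of neighbours the limit was the SD between nestlings, and for counts 1.5 times. For natal sharing it was the SD over pairs of birds, and for correlations a fixed value. For the carer difference it was the SD within classes, so even -0.00310 points, for losses below 50%, counted among the 44. Causes were not tested. No paired analysis was possible because replicate numbers were given in accession order and pair no nestlings.

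The number of sites was 258 at a mean of 97% or more and 164637 at 93% or more. Without nestling 79676 it was 31280, of which 21101 were among the 24559. The share of losses, 6.02%, was 0.947% below 70%, 0.0335% below 50%, 10.8% on 7 to 9 reads and 19.03% at sites chosen over the other nestlings. The carer difference kept its sign in 10 alternatives, but not on values of 7 to 9 reads without nestlings 79676 and 61667 (0.00657 points). The correlation with age was 0.267 without nestling 79676. That with reads was 0.532 at a mean of 97% or more, 0.507 for losses below 70% and 0.845 for losses below 50%.

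Joint loss within 200 bp, 14.99% against 5.52% in nestlings without the loss, was 20.9% against 5.11% within 50 bp. It was 7.72% against 6.03% at 51 to 200 bp and 6.52% against 6.05% beyond 200 and up to 1000 bp. With any deposited neighbour it was 24.0% against 18.3%, and on 7 to 9 reads 24.3% against 8.89%. For losses below 70% it was 6.99% against 1.01%, and for losses below 50% 3.67% against 0.0541%. At a mean of 97% or more it was 0 against 5.88%, but only 258 sites met that limit. Losses shared within natal groups, median 2.13%, were 3.64% at a mean of 93% or more. They were 0 at 97% or more and for losses below 70% or 50%, as for different natal groups, and 0 on at least 10 reads, against 1.03% for different natal groups.

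Calls are given here out of those over all sites, of which the nearly fully methylated ones made up 1.57%. Carer calls, 32 of 1219, were 72 of 4319 at an adjusted p of 0.05 and 1 of 9 with the likelihood ratio test. They were 12 of 15 with quasi-binomial regression and 123 of 4406 with 1 nestling per natal group. With values only kept just inside 0 and 1 they were 6 of 1545, and with carer class alone 10 of 783. They were 47 of 1422 without nestling 79676 and 0 of 0 with limma. With limma 1049 (4.27%) had an unadjusted p under 0.05, against 4.92% of all sites. With quasi-binomial regression 2472 (10.1%) had one, against 5.74% of all sites. Age calls, 33 of 632, were 73 of 2559 at an adjusted p of 0.05 and 0 of 0 with the likelihood ratio test. With quasi-binomial regression they were 7 of 9 (5 of the 7 rising, where 1 of the 33 rose). They were 147 of 4318 with 1 nestling per natal group and 4 of 549 with values only kept just inside 0 and 1. Without nestling 79676 they were 46 of 816, and with limma 0 of 0. The unadjusted p was under 0.05 at 1031 (likelihood ratio test, 4.20% against 7.13% of all sites) and 876 (limma, 3.57% against 5.13%). With quasi-binomial regression it was under 0.05 at 2032 (8.27% against 5.30%). The carer and age terms of the 7 sites named for them kept their direction in each alternative that could be fitted there. The other named sites were not refitted.

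By the read numbers used here, which in most nestlings were recovered from the coverage, 73.9% of losses rested on 7 to 9 reads. The interval of 65.99% of losses reached 95%, and that of the other 34.0% ended below it. The reading of coverage behind the recovered reads was not borne out where it could be checked. How far depth limited single losses was not tested.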
